A study of Homo sapiens with 2 samples.

Results

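The 361 regions described here are stretches of distal H3K27ac in which at least 3 peaks of the ERG library lie close together. They were selected on the ERG-library peak positions. ERG-library peaks on chromosomes 1 to 22, X and Y were kept when they lay more than 1 kb from both ends of every protein-coding gene and within 500 kb of such a gene. Kept peaks were joined when 12500 bp or less apart, which gave 6875 joined regions, and those of 3 or more peaks were retained. They are called domains below, and the other joined regions held 1 peak (5334) or 2 peaks (1180). The domains held 1297 of the 8991 distal ERG-library peaks, 14.4%, and 13.9% of their covered length. Since the members were chosen on ERG-library peaks, a longer covered length in that library is partly fixed by the choice.

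The study holds 2 chromatin immunoprecipitation libraries for H3K27ac from F36P cells. F36P is an established human line of erythroid leukaemia. The ERG library came from cells transduced with the retroviral plasmid MSCV-PIG-AM-ERG, labelled ERG overexpression, and the Vector library from cells transduced with MSCV-PIG, labelled WT. The meaning of AM and the promoter that drives ERG were not established here. Both cultures were kept for 4 days in 1 µg/ml of puromycin, fixed with 1% formaldehyde and cut with micrococcal nuclease, and 10 µg of chromatin went into each pull-down. The comparison was made to learn how ERG holds back erythroid differentiation. Each group held 1 library of a single cell line, so no difference has a replicate check, no p-value is given, and every difference is one between these libraries and not between conditions.

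Enhancers are regulatory sequences that act on promoters at a distance, and acetylation of histone H3 at the site written H3K27ac marks those that are active, as it marks active promoters. Enhancers of genes that define a cell type often stand in clusters over many kilobases, and such clusters are bound by several of the lineage's transcription factors together. ERG is an ETS-family factor that binds DNA words around GGAA, and in blood stem cells it works with TAL1, LYL1, LMO2, GATA2, RUNX1 and FLI1, a group known as the heptad. GATA factors, which bind words around GATA, direct erythroid maturation.

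The sequences that could be shown are those upstream of transcription starts inside domain peaks, chosen to set windows with an ETS word beside windows without one. The RefSeq start windows of GRCh38.p14 (hg38) hold 250 bases before each start, and 30 of 35116 such windows lay wholly inside a domain peak. These belonged to 25 genes in 24 domains. The words searched on both strands were CCGGAA or AGGAAG for ETS factors and AGATAA for GATA factors, and matches may overlap each other. Letters in capitals mark the matches, on either strand, and each window is written from its 5′ end towards the start of the gene named.
LOC102724193, noncoding, in the EGFL7 domain, chr9:136646434-136646683, plus strand: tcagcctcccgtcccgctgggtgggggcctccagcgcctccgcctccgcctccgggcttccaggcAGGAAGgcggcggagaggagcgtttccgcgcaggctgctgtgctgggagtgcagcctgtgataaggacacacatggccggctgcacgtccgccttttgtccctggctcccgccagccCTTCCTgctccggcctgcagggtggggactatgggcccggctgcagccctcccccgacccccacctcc
LOC124903824, noncoding, in the SKI domain, chr1:2314793-2315042, plus strand: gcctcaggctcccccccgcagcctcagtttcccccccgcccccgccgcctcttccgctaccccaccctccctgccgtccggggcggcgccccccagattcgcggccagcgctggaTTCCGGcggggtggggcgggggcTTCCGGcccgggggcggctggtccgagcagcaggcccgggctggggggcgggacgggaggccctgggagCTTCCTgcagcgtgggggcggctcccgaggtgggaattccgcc
LOC100506639, noncoding, in a domain nearest ANXA2R, chr5:43066773-43067022, plus strand: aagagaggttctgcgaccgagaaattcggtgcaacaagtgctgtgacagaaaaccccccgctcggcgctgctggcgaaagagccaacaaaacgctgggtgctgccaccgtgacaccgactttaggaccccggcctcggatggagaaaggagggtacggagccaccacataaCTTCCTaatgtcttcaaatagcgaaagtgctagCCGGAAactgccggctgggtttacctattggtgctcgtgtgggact
HEAT2, noncoding, in the domain nearest ADRA2A, chr10:111114041-111114290, plus strand: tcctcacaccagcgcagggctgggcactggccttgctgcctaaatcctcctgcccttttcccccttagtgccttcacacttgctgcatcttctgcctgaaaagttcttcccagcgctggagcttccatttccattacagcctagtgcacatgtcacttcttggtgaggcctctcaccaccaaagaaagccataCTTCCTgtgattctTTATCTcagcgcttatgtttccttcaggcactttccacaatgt
ZFP36L1, protein-coding, chr14:68793417-68793666, minus strand: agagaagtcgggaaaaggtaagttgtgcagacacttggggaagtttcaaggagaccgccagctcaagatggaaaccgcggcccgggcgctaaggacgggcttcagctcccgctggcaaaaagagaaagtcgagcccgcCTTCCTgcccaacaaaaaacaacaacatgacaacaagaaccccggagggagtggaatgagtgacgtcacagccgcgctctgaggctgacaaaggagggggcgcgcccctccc
CDKN2C, protein-coding, chr1:50968456-50968705, plus strand: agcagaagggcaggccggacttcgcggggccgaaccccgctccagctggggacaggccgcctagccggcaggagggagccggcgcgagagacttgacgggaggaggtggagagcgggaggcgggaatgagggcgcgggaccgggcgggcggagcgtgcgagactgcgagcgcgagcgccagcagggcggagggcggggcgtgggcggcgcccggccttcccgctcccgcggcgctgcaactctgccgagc

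The window in the EGFL7 domain held 2 ETS matches, the one in the SKI domain 3 and the one at LOC100506639 2, and the ERG-library peaks around them had 117, 65 and 115 fragments at their summits against 34, 34 and 43 in the overlapping Vector-library peaks. HEAT2 held 1 ETS match and the 1 GATA match of all 30 windows, in a domain with no Vector-library peak, where its ERG-library peak had 43 fragments. The peak at ZFP36L1, an RNA-binding protein that speeds mRNA decay, had 95 fragments and no Vector-library counterpart, and its window held 1 ETS match. CDKN2C encodes a cyclin-dependent kinase inhibitor that holds cells in the G1 phase. Its window held neither word, and its peak had 141 fragments against 71. Over the 30 windows, 18 (60%) held an ETS word, from 14 of the 25 genes. The share was 39.3% of all 35116 windows and 52.3% of the 5196 windows wholly inside any ERG-library peak. The GATA word was found in 1 of 30 windows (3.33%), in 9.17% of all windows and in 2.75% of those inside any ERG-library peak. The ETS share of the domain windows was thus nearer to that of windows inside ERG-library peaks in general, of which they are a part, than to that of all windows. Some of the 30 windows overlap each other. With 1 of 30, the GATA share is too uncertain to be placed. Other GATA words, such as the TGATAA in the EGFL7 window, were not searched. The matches are letters in a window and not bound sites.

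In the deposited lists the ERG library had 19671 peaks and the Vector library 9161, of which 18973 and 8940 lay on chromosomes 1 to 22, X and Y and covered 14.6 and 5.19 Mb. Read totals are not part of such lists. The number of fragments at each peak's summit was recovered from the deposited fold and p-value, and the lowest local background, which is the genome-wide level, was 2.31 fragments for ERG and 1.6 for Vector. The quotient of 1.44 is used below as the difference in depth. The labelled cell type was checked at gene ends, which are the stretches within 1 kb of either end of a gene record. Such a peak was found at 10 of 14 erythroid markers in the Vector library and at 11 in the ERG library, with ALAS2 in the ERG library alone and ANK1 and HBG1 among those in neither. Of 6 myeloid markers 1 and 3 had one, of 4 megakaryocyte markers 2 and 2, of 4 lymphoid markers 0 and 1, of 4 endothelial markers 0 and 1, and of 3 fibroblast markers none in either.

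Most domains were small groups of peaks, and nearly all were covered over a longer stretch in the ERG library. Of the 361, 249 held 3 peaks, 68 held 4 and 44 held 5 or more, up to 17. The median domain spanned 11510 bp (2169 to 67409) and was covered by ERG-library peaks over 2019 bp (1006 to 12375). Vector-library peaks covered a median of 339 bp (0 to 9665). The difference, ERG minus Vector library, had a median of 1643 bp and ran from -458 to 5516 bp, with 1 domain below 0. Summed over all domains, ERG-library peaks covered 856 kb and Vector-library peaks 203 kb, a ratio of 4.2. Measured the same way, the ratio was 5.69 in regions of 1 peak and 5.41 in regions of 2 peaks, both higher than in the domains. Over the whole lists, Vector-library peaks outside these regions included, it was 2.8. Within the domains it was 4.49 in the 357 domains of fewer than 9 peaks and 1.57 in the 4 domains of 9 or more.

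The lower limit of 3 peaks also separates regions of different size. Just outside it, the 1180 regions of 2 peaks had a median span of 2132.5 bp, an ERG-library covered length of 1182.5 bp, a Vector-library covered length of 0 bp and 44 fragments at the stronger summit. Just inside it, the 249 domains of 3 peaks had 10374 bp, 1777 bp, 299 bp and 59 fragments.

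**Figure D1:**
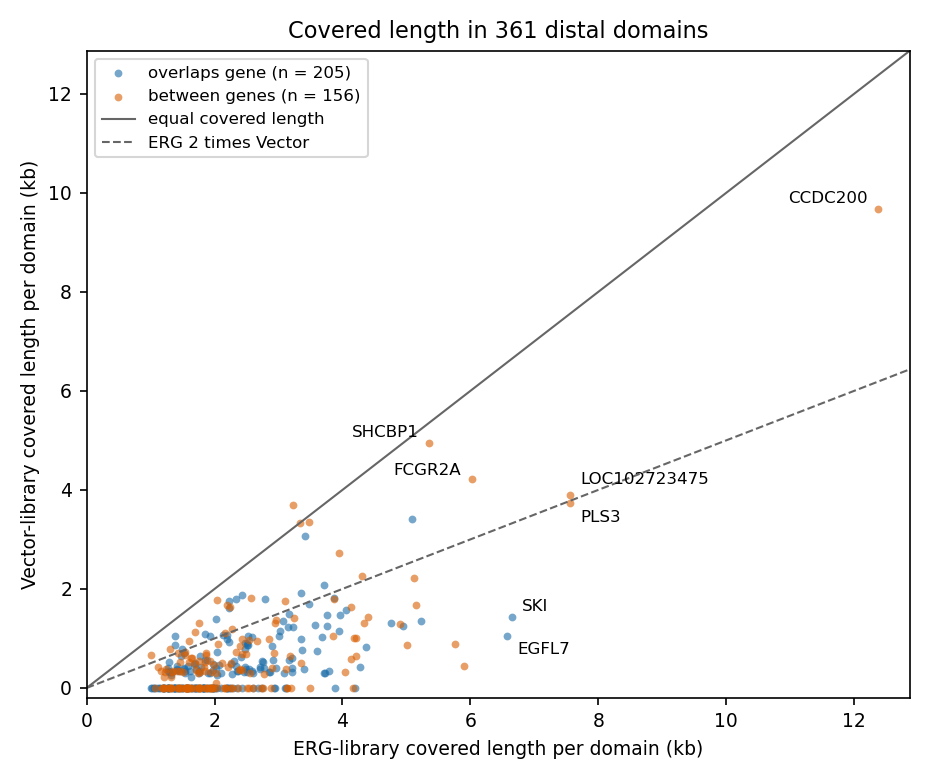
Length covered by peaks in each of the 361 domains, in kb, with the ERG library on the horizontal axis and the Vector library on the vertical axis. Blue points overlap a protein-coding gene and orange points do not, the solid line is equal length and the dashed line an ERG-library length of 2 times the Vector. 1 point lies above the solid line, and 325 lie on or below the dashed line. Names are those of the nearest or overlapped coding gene.

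Part of the domains were seen in the ERG library alone. No Vector-library peak lay in 143 of 361 domains, 39.6% (95% interval 34.5 to 44.9), compared with 73.1% of all 6875 joined regions. A longer region has more room for a Vector-library peak, so the lower share in domains is partly set by their length. In 325 domains, 90.0% (86.5 to 92.9), the ERG-library covered length was at least 2 times the Vector-library length. This is close to the 87.3% of all joined regions and no feature of the domains. Counted by peak, 953 of the 1297 domain peaks had no overlapping Vector-library peak, 73.5% (71.0 to 75.9), near the 77.5% of all distal ERG-library peaks. Intervals here and below are exact binomial ones and cover counting error only.

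Within a domain, peaks differed in whether they were found again. All distal peaks overlapped a Vector-library peak in 9 domains, some did in 204 and none did in 148. Exactly 1 peak was shared in 138 domains. In the 204 partly shared domains the strongest ERG-library peak was among the shared ones in 144, 70.6%. A common arrangement was therefore a shared strong peak with unshared weaker peaks around it. Taller peaks were shared more often in regions of 1 peak too, 3.72% below 20 fragments and 91.8% at 100 or more. The arrangement is thus not read as a trait of the domains. Conversely, 377 Vector-library peaks lay in the domains, and 23 of them overlapped no ERG-library peak.

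The same rule applied to the Vector list gave 40 domains, and 25 of these overlapped 25 of the 361. In the 40, Vector-library peaks covered 92008 bp and ERG-library peaks 112208 bp in total, with medians of 1840 and 2264.5 bp. The ERG library was covered over the longer stretch in 27 of the 40, although these regions had been chosen on the Vector library. The domain at CMIP on chromosome 16 was the single one of the 40 to reach 2 times (3083 against 1238 bp). When the ERG list was shortened to its top-scoring peaks until it was as long as the Vector list, the rule gave 37 domains, 36 of the 361 overlapped one of them, and 53.1% of the peaks in the 37 were shared.

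Peaks in domains were taller than lone distal peaks yet stood out less from their surroundings. The median number of summit fragments was 48 in domains, 37 in regions of 2 peaks and 27 in lone peaks. The deposited local background at the summit was a median of 15.6, 10.6 and 6.30 fragments, and the median fold over it was 3.0, 3.25 and 3.79. Widths were similar, at 519, 528 and 560 bp. These values come from the contrast that chose the members and describe them only.

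At equal height, the taller domain peaks had a Vector-library counterpart less often than lone peaks. Among ERG-library peaks with 60 to 99 fragments, 134 of 312 domain peaks were shared, 42.9% (37.4 to 48.6), against 325 of 461 lone peaks, 70.5% (66.1 to 74.6). With 40 to 59 fragments the shares were 17.5% (13.9 to 21.6) and 39.6% (36.3 to 43.1), and with 100 or more they were 70.5% (62.2 to 77.9) and 91.8% (86.2 to 95.7). In each of these bands the intervals did not overlap. With 30 to 39 fragments the shares were 10.8% (7.10 to 15.5) and 20.7% (18.1 to 23.5). They were 8.67% (4.93 to 13.9) and 9.92% (8.48 to 11.5) with 20 to 29, and 6.38% (1.34 to 17.5) and 3.72% (2.80 to 4.84) below 20, with overlapping intervals in both. In the band of 60 to 99 fragments the local background was 24.7 fragments in domains and 13.8 at lone peaks, and the fold 2.95 and 5.13.

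At equal −log10 q-value, which takes the local background into account, the shares came together. From 10 to 20 they were 35.6% (30.3 to 41.3) in domains and 35.7% (32.8 to 38.8) at lone peaks, and at 20 or more 76.0% (69.0 to 82.1) and 80.4% (77.2 to 83.4). From 3 to 6 the domain peaks were shared more often, 11.0% (8.05 to 14.5) against 6.13% (5.08 to 7.32). The shares of domain peaks and lone peaks were thus closer together at equal q-value than at equal height.

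**Figure D2:**
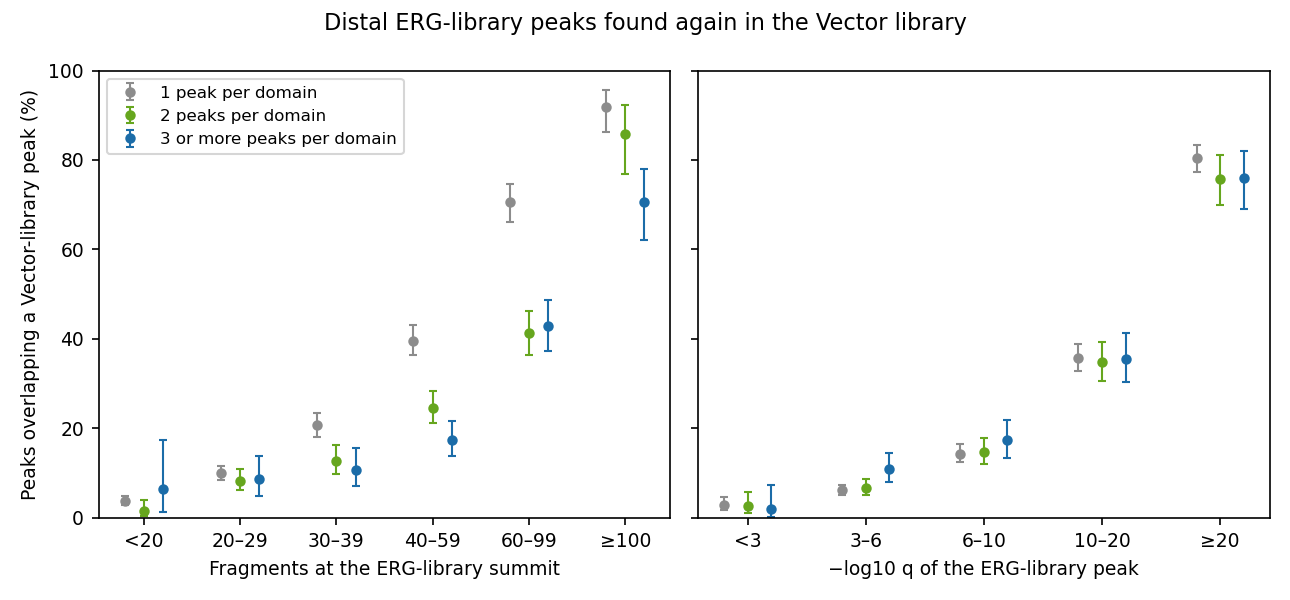
Percent of distal ERG-library peaks that overlap a Vector-library peak, by the number of fragments at the ERG-library summit (left) and by the −log10 q-value of the peak (right), for regions of 1 peak, 2 peaks and 3 or more. Bars are exact 95% binomial intervals. From 40 fragments up the blue points for domains lie below the grey points for lone peaks, whereas at a −log10 q-value of 10 to 20 they stand at 35.6% and 35.7%.

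The unshared domain peaks were then set against the difference in depth. Of the 953 unshared domain peaks, 881 (92.4%) would still pass the lowest deposited −log10 p-value of the Vector list after their fragments and background were divided by the depth ratio of 1.44. Divided by the ratio at shared domain peaks, 2.0, the number was 728 (76.4%). These shares are not given for unshared distal peaks outside the domains, so they describe the domain peaks alone. The whole ERG list was also thinned to the Vector background, which left 18074 peaks. The rule then gave 310 domains, 310 of the 361 overlapped one of them, and 39.7% of the domains given held no Vector-library peak. Thinning only dropped listed peaks and none were called again from reads, so the effect of depth on peak calls was not tested.

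Where both libraries had a peak, the ERG library had more fragments, by more than the depth ratio. At the 341 pairs of overlapping peaks in domains, ERG-library summits held 34582 fragments and Vector-library summits 17323, a ratio of 2.0 (exact 95% interval 1.96 to 2.03). It was 2.13 (2.10 to 2.16) at lone distal peaks and 2.17 (2.16 to 2.19) at 5207 pairs at gene ends. Pooled over fragments, the ratio at domain peaks thus stood above the depth ratio and below that at gene ends. Domains of many fragments weigh most in it, such as that nearest SHCBP1 with 1767 against 1489. Medians over single pairs were closer, at 2.03 in domains, 2.09 at lone peaks and 2.14 at gene ends. ERG-library peaks of the domain pairs were also wider, with medians of 798 and 454 bp. For single domains, the ratio in the 213 with a shared peak had a median of 2.15 (quartiles 1.64 and 2.61) and ran from 0.962 to 6.50. Its interval lay wholly above the depth ratio of 1.44 in 106 domains, wholly below it in 6 and across it in 101. The pooled ratios at lone peaks, in regions of 2 peaks (2.1) and at gene ends also stood above 1.44. A ratio above it is therefore no feature of the domains.

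The highest ratio, 6.50 (4.04 to 11.0), was found in a domain at SLC10A7 on chromosome 4 from 146398747 to 146408649, with 130 fragments against 20. A domain nearest RPN1 followed with 3.79 (2.69 to 5.44). The 6 domains below the depth ratio were nearest LOC101929601, LOC124902048, NFIX, SHCBP1, LOC124903767 and ZNF33B. Those nearest LOC124902048, SHCBP1, LOC124903767 and ZNF33B lay 6.99, 177.0, 181.7 and 487.5 kb from any coding gene. Whether reads in these 6 domains come from repeated sequence was not tested, so their low ratios are uncertain.

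**Figure D3:**
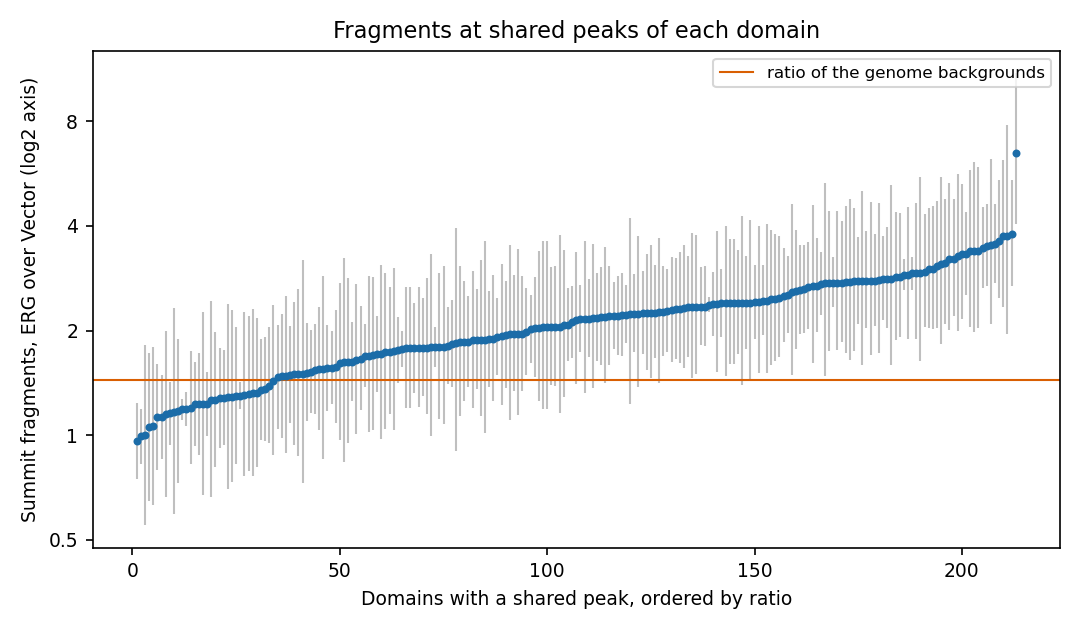
Ratio of ERG-library to Vector-library summit fragments, on a log2 axis, for the 213 domains with a shared peak, ordered by ratio. Points are the ratio over all shared peaks of a domain, grey bars are exact 95% intervals and the orange line is the depth ratio of 1.44. Bars lie wholly above the line in 106 domains and wholly below it in 6. The pooled ratios at lone distal peaks, 2.13, and at gene ends, 2.17, are above the line too.

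EGFL7 had the domain in which ERG-library coverage exceeded Vector-library coverage the most, by 5516 bp. It encodes a secreted protein of endothelial and blood progenitor cells whose gene hosts the microRNA miR-126. This domain lies on chromosome 9 from 136644671 to 136665417 and reaches into the gene. Its 4 ERG-library peaks had 117, 83, 56 and 152 fragments and covered 6573 bp. The first and last overlapped Vector-library peaks of 34 and 42 fragments, which covered 1057 bp. The fragment ratio of these pairs was 3.54 (2.73 to 4.63), above the 2.0 of all shared domain peaks. No peak lay within 1 kb of the ends of the gene record in either library, but the last peak, of 2486 bp, lay 16 bp from a listed coding start and the first, of 2664 bp, held a noncoding start, that of LOC102724193.

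SKI, a corepressor that restrains TGF-beta signalling, had a domain on chromosome 1 from 2278885 to 2316031 that spans the higher-coordinate end of the gene record. The 5 ERG-library peaks had 55, 97, 121, 71 and 65 fragments over 6644 bp. The third and the fifth met Vector-library peaks of 33 and 34 fragments, over 1432 bp, with a ratio of 2.78 (2.09 to 3.73). The other peaks had no counterpart, although that of 97 fragments was taller than the shared one of 65.

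PIK3CB encodes a catalytic subunit of phosphoinositide 3-kinase, and its domain lies 27.9 kb from the gene, on chromosome 3 from 138862832 to 138892163. ERG-library peaks covered 5767 bp and Vector-library peaks 885 bp. The 5 summits had 59, 73, 116, 70 and 62 fragments, and the first and the third met Vector-library peaks of 24 and 43. TFRC, the transferrin receptor that brings iron into erythroid cells, lay 25.8 kb from a domain of 7 peaks on chromosome 3 from 196107892 to 196140891. It was covered over 5009 bp against 874 bp, and its 7 summits had 44, 78, 78, 114, 60, 84 and 38 fragments. Vector-library peaks of 37 and 60 fragments met the first and the fourth, and the ratio of 1.63 (1.26 to 2.12) spanned the depth ratio. At PIK3CB the ratio was 2.61 (1.96 to 3.52), with its interval wholly above the depth ratio.

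Other named domains of large excess or many peaks differed in how many of their peaks were shared. ARHGAP22 had 7 peaks with 1 shared, over 5231 bp against 1349 bp. ACTN4, an actin-bundling alpha-actinin, had 6 peaks with 1 shared, over 4276 bp against 425 bp, and PLEKHG1 had 6 with 2 shared, over 4370 bp against 830 bp. Of 7 peaks each, 4 were shared near the zinc finger factor gene MZF1, 2 at LOC124905135 and 1 near TMEM235, with 5151 against 1675 bp, 4939 against 1253 bp and 4034 against 319 bp. The 6-peak domains nearest MDM1 and at the glutamate receptor gene GRIK1 had 4208 against 1004 bp and 4056 against 1564 bp.

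Among domains with no Vector-library peak, the longest coverage was 4191 bp at C12orf42 on chromosome 12 from 103434193 to 103456603, whose 3 peaks were low, with 27, 28 and 45 fragments. FAM53B on chromosome 10 had 3885 bp, with 33, 72 and 96 fragments, and the domain 32.9 kb from the adrenergic receptor gene ADRA2A 3139 bp, with 43, 36 and 54. The tallest were beside LYN, a Src-family kinase of blood cells. This domain lies 14.5 kb from the gene on chromosome 8 from 55843673 to 55865346. Its 5 peaks had 82, 122, 90, 102 and 155 fragments over 4171 bp. The Vector library had no peak here, also at those of 122, 102 and 155 fragments, whereas 70.5% of all domain peaks with 100 or more fragments had one. By −log10 q-value the contrast was smaller. The peaks of 122 and 102 fragments had 18.8 and 13.3, and from 10 to 20 only 35.6% of domain peaks were shared. The peak of 155 fragments had 47.3, and at 20 or more 76.0% were shared.

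**Figure D4:**
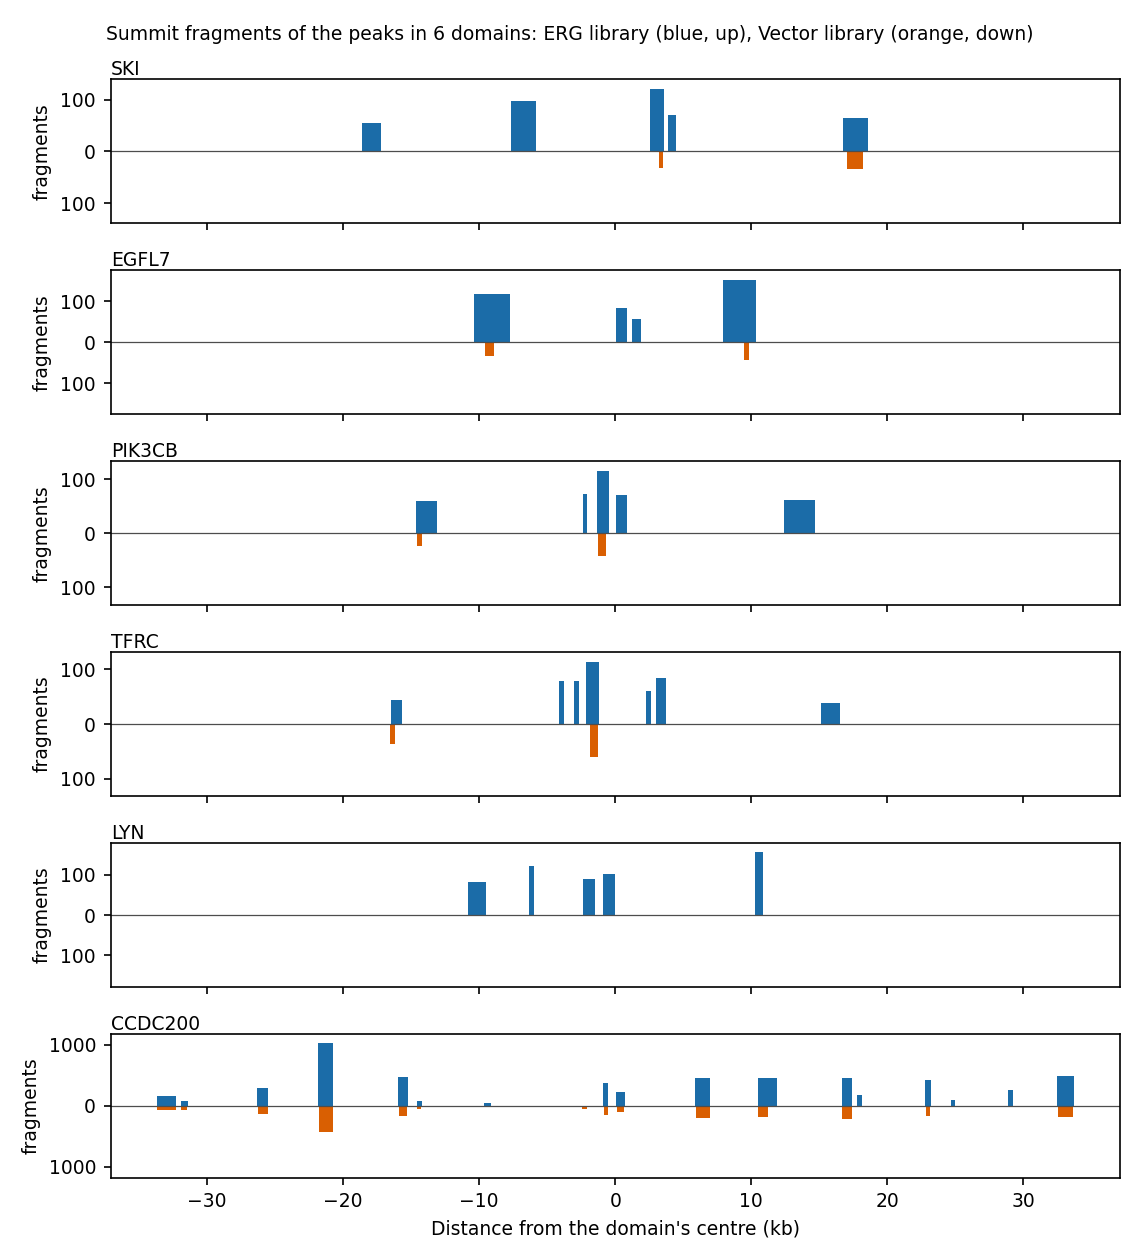
Peaks of 6 domains by distance from the domain's centre in kb, with fragments at the summit as height, the ERG library in blue upwards and the Vector library in orange downwards. The vertical scale differs between panels. LYN has 5 ERG-library peaks and no Vector-library peak, SKI, EGFL7, PIK3CB and TFRC have 2 shared peaks each, and at CCDC200 13 of 17 ERG-library peaks are shared.

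GSDMC was the nearest coding gene of a pair of domains on chromosome 8, in a stretch that holds the noncoding gene CCDC26. The first in size, from 129665280 to 129692299, had 5901 bp against 448 bp. Both together had 10796 bp against 1733 bp. MYOM2, a muscle gene 35.0 kb from its domain, had 3495 bp with no Vector-library peak. Near ETS1, a relative of ERG, both domains lacked a Vector-library peak. The larger, of 3189 bp and 4 peaks of 72, 91, 47 and 63 fragments, lay 183.7 kb from the gene. In all, 22 genes were nearest to 2 or more domains and 4 of them, ANXA2R, SPATA31A5, FUT8 and SYN3, to 3. The pairs beside the transcriptional repressors BCOR and ZEB2 were covered over 6499 against 726 bp and 6061 against 1891 bp (both genes chosen after their values were seen).

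The 3 domains with the most peaks lay at repeated sequences or noncoding RNA genes, and they were covered in both libraries. The first, of 17 peaks and 12375 against 9665 bp on chromosome 17 from 43233931 to 43301339, lies 2.66 kb from CCDC200 and holds 13 small nuclear RNA genes. Next, a domain of 15 peaks and 7560 against 3729 bp lies on chromosome X from 115844007 to 115888778, 193.1 kb from PLS3. It holds the noncoding genes DANT1 and DANT2 of the DXZ4 tandem repeat, and the median step from one peak start to the next was 2993.5 bp. The next, of 13 peaks and 7555 against 3900 bp on chromosome 21, holds 4 ribosomal RNA genes and is nearest LOC102723475. The domain nearest FCGR2A, an Fc receptor gene of myeloid cells 35.0 kb away, holds 21 tRNA genes, and all 5 of its peaks were shared, over 6018 against 4211 bp. Reads from near-identical copies cannot be placed with certainty, so the split of fragments among these peaks is uncertain.

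Some named domains were covered nearly as far in the Vector library as in the ERG library. The 1 domain with more Vector-library coverage, nearest LOC124902048, had 3228 bp against 3686 bp and a fragment ratio of 0.992 (0.829 to 1.19). The domain nearest ZNF33B, 487.5 kb from it, had 3478 against 3356 bp. That nearest SHCBP1, 177.0 kb from it, had 5355 against 4949 bp, and that overlapping LOC101929601 had 3411 against 3065 bp. The domain of 9 peaks nearest LOC124903767, 181.7 kb from it, had 3938 against 2719 bp. That nearest ZNF875, 9.52 kb away, had 2190 against 1680 bp. The domains at LOC101929601 and nearest LOC124902048 overlap 2 and 3 pseudogenes. Whether reads in the domains of this paragraph come from repeated sequence was not tested.

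Over the whole set, 205 domains overlapped a protein-coding gene, 164 of them wholly inside 1, and 156 lay between genes, 97 within 50 kb of the nearest and 59 beyond. The share that overlapped a gene, 56.8%, was near the 60.7% of regions of 1 peak and the 60.3% of regions of 2. Domains that overlapped genes had the higher ratio, 4.88 times the Vector-library length in total, against 3.60 between genes. Their peaks were shared less often, 155 of 703, 22% (19.0 to 25.3), against 189 of 594, 31.8% (28.1 to 35.7), at median heights of 49 and 48 fragments. All 4 domains of 9 or more peaks lie between genes. Without them the ratio between genes was 4.07 and the shared peaks 156 of 540, 28.9% (25.1 to 32.9), an interval that overlaps that of the domains in genes. A long noncoding RNA gene overlapped 109 domains, a microRNA gene 11, a small nucleolar RNA gene 8, a tRNA gene 7, a small nuclear RNA gene 6 and a ribosomal RNA gene 3. Such noncoding counts are not given for all joined regions, so they only describe the domains. Chromosome 1 held 45 domains, and chromosome 21 had the most per 1000 coding genes, 46.0 from 11 domains, against 7.74 from 7 on chromosome 5. Of the joined regions on these chromosomes, 6.05, 8.73 and 3.27% were domains.

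The rule left out gene ends, yet some domain peaks lay at a start inside a gene record. Of 1215 domain peaks on the chromosomes with start windows used here, 51 (4.2%) lay within 1 kb of a listed coding start, 61 at a listed noncoding start alone and 1103 at neither. Among other distal peaks 11.3% lay at a listed coding start. Shares were 47.1% (32.9 to 61.5) shared at coding starts, 41.0% (28.6 to 54.3) at noncoding starts and 24.8% (22.3 to 27.5) elsewhere. The windows cover 15843 of the 20037 coding genes, so the numbers at starts are minimum counts.

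Genes with a domain were more often acetylated at their own ends than genes in general. Of the 350 genes overlapped by or nearest to a domain, 150 had gene-end peaks in the ERG and in the Vector library, 42.9% (37.6 to 48.2), against 30.2% of all 20037 genes. Of the 213 overlapped genes it was 96, 45.1% (38.3 to 52.0). Among the 114 overlapped genes without a Vector-library end peak, the ERG library had one at 46, 40.4% (31.3 to 49.9), against 22.5% (21.8 to 23.2) of all genes. Genes overlapped by regions of 1 or 2 peaks alone had 39.8% (38.0 to 41.6) and 33.5% (31.3 to 35.7). The intervals of both kinds of gene overlap, so the domains did not stand apart from smaller distal regions in either share.

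Over all coding genes, 3.1% (622 of 20037) had a domain inside them or within 50 kb. Of the 316 genes on all lists together, controls included, 30 had one, 9.49% (6.50 to 13.3). The lists were chosen with earlier results of these data known. The share was 4.48% among genes with an end peak in both libraries and 2.11% among genes with none, so genes with acetylated ends lay near domains more often in general. The largest shares were those of the heptad, 4 of 7, 57.1% (18.4 to 90.1), and the erythroid effectors, 8 of 32, 25% (11.5 to 43.4). Next came the erythroid regulators, 5 of 21, 23.8% (8.22 to 47.2), and the G1 and apoptosis regulators, 3 of 17, 17.6% (3.8 to 43.4). The stem and progenitor regulators had 4 of 24, 16.7% (4.74 to 37.4), and the myeloid list 4 of 25, 16.0% (4.54 to 36.1). The lower bounds of the G1, stem and myeloid lists were close to 4.48%, that of the G1 list below it. Genes that share a domain are counted separately, so the intervals are too narrow, and no list was tested. Within 10 kb, 0 of 25 myeloid genes had a domain, against 299 of 20037 coding genes. TAL1, LMO2 and LYL1 are on both the regulator and the heptad lists.

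**Figure D5:**
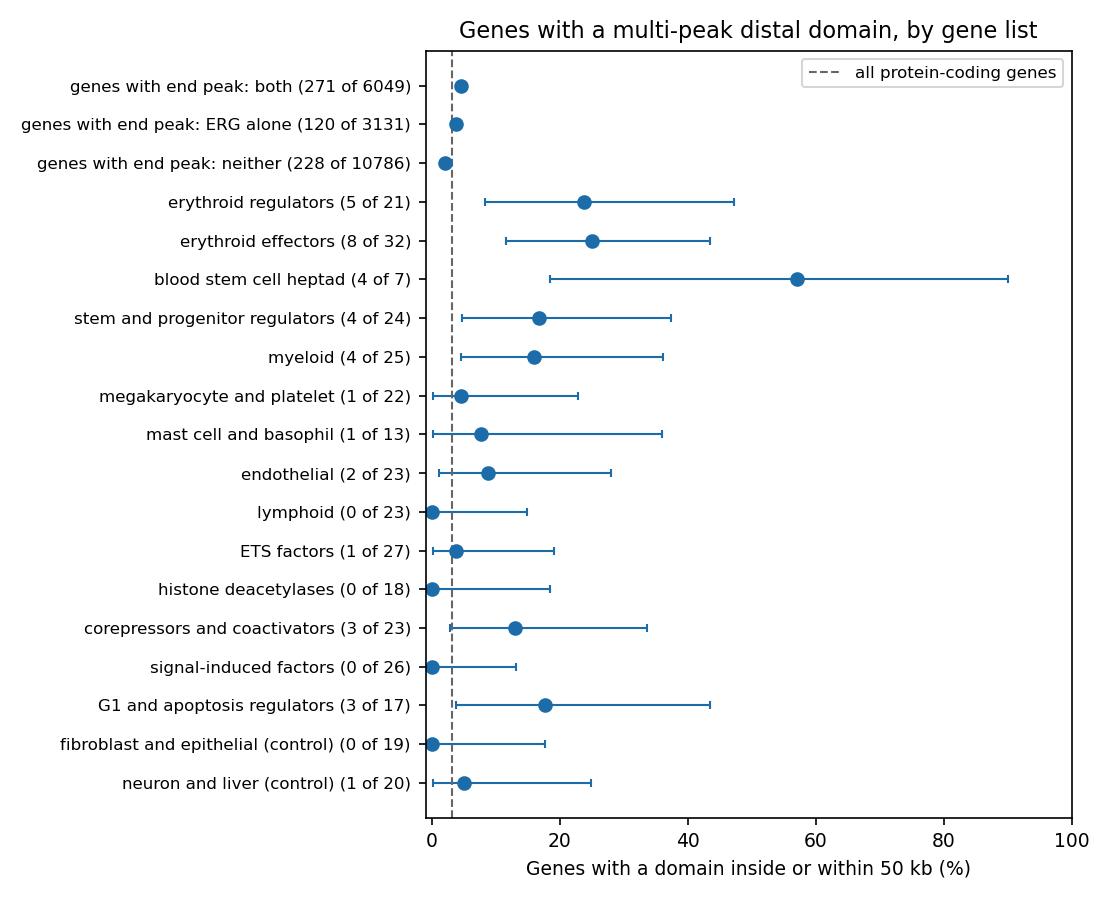
Percent of the genes of each list that have a domain inside them or within 50 kb, with exact 95% binomial intervals, and the 3.1% of all protein-coding genes as a dashed line. The counts stand beside each list. The 2 erythroid lists and the heptad lie farthest to the right, and the lymphoid, histone deacetylase, signal-induced and fibroblast and epithelial lists are at 0.

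TAL1, a master regulator of blood stem cells and erythroid cells, had a pair of domains towards lower coordinates. The one that overlaps its lower-coordinate end, on chromosome 1 from 47211279 to 47225853, had ERG-library peaks of 136, 67 and 110 fragments over 3104 bp and no Vector-library peak. The one 22.5 kb away, beside PDZK1IP1, had peaks of 46, 100 and 35 fragments, and the tallest met a Vector-library peak of 67. TAL1 itself had a peak at a gene end in both, while the 3 peaks of the nearer domain were in the ERG library alone.

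LMO2, a bridging partner of TAL1, had a domain of 61, 58, 44 and 47 fragments over 3479 bp, and the first and second met Vector-library peaks of 40 and 37. LYL1, a close relative of TAL1, lay 19.4 kb from a domain at NFIX in which all 3 peaks were shared at 75, 61 and 63 against 67, 57 and 48 fragments. Its ratio of 1.16 lay below the depth ratio. RUNX1, required for the first blood stem cells, was among the genes whose ends had a peak with ERG but not with Vector. The domain inside it had peaks of 64, 83 and 64 fragments and no Vector-library peak, and that beyond its end had peaks of 22, 24 and 24, the last shared with 19. At the heptad genes, the ERG-library excess thus differed from domain to domain. The nearer TAL1 domain and the one inside RUNX1 stood at one end, and the NFIX domain near LYL1 at the other. In the second domains of TAL1 and RUNX1 the shared peaks had 100 against 67 and 24 against 19 fragments.

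GATA2, the heptad's GATA factor, had no domain within 50 kb. Beside RPN1, where a distal blood enhancer of GATA2 is known, were 2 domains (chosen after their values were seen). The one on chromosome 3 from 128604180 to 128618280 had peaks of 121, 163 and 81 fragments over 3180 bp, and the middle peak met a Vector-library peak of 43. The other, from 128584559, had peaks of 70, 50 and 57 over 1859 bp, against Vector-library peaks of 29 and 21.

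Other erythroid regulators with a domain were ZFPM1, the partner of GATA1, with 1381 against 1039 bp, and NFIA, a factor that favours erythroid fate, with 4 peaks of up to 33 fragments and no Vector-library peak. Among erythroid effectors, HBB, HBG1 and HBG2, the adult and fetal beta-type globin genes, share a single domain upstream of HBE1 on chromosome 11 from 5275532 to 5281303, where the globin locus control region lies. Its peaks had 33, 56 and 36 fragments over 1312 bp, and only the first met a Vector-library peak, of 31. RHD, the Rh blood group antigen, had 3566 against 1272 bp. ANK1, the membrane skeleton anchor, and GYPB, a glycophorin, had 2014 and 1818 bp with no Vector-library peak. GYPB and RHD have near-identical neighbours, so their reads are uncertain.

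Stem and progenitor genes with a domain were ETV6, an ETS-family repressor, with peaks of 102, 131 and 92 fragments, none of them shared (2108 against 299 bp), CD34, the progenitor surface marker, with 2328 against 452 bp, GFI1, a repressor of blood progenitors, with 1220 against 0 bp, and EGFL7. ETV6 was the 1 of 27 ETS genes with a domain, 3.7%, near the 3.1% of all coding genes. In the myeloid list AZU1 and PRTN3, neutrophil granule proteins, share a domain at PTBP1 with 1564 against 0 bp, and FCGR2A counts through the tRNA genes above, so 3 separate regions lie behind its 4 genes. HDC, the histamine-forming enzyme of mast cells, had 2528 against 1056 bp, and ENG, an endothelial receptor of the TGF-beta family, 1303 against 312 bp.

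No domain lay within 50 kb of any of 18 histone deacetylase genes, among them HDAC7 of the series title, with an upper bound of 18.5%. None lay near 23 lymphoid, 26 signal-induced or 19 fibroblast and epithelial genes, with upper bounds of 14.8, 13.2 and 17.6%. All these bounds are above the 3.1% of all coding genes, so none of these lists is told apart from genes in general. Among 23 corepressors and coactivators, SKI, NCOR1 (2503 against 327 bp) and the demethylase KDM1A (1635 against 211 bp) had one. Among 17 regulators of the G1 phase and apoptosis, these were CCND3, the cyclin D3 of erythroid cell division, with 2953 against 395 bp, CDKN2C with 5084 against 3411 bp, and the survival factor MCL1 with 1744 against 309 bp. The shares of the corepressor and G1 lists were 13% (2.78 to 33.6) and 17.6% (3.8 to 43.4). Both intervals hold the 4.48% of genes with an end peak in both libraries. The megakaryocyte list had 1 of 22, RUNX1, and the neuron and liver list 1 of 20, GRIN1, shares of 4.55 and 5% near that of all coding genes.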

How the data were processed

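H3K27ac chromatin immunoprecipitation was sequenced in 1 ERG and 1 Vector library of F36P cells, so each group holds 1 sample. Bowtie2, MACS2 and deepTools were used with hg38, per the submitters' processing notes; versions, an input library and the treatment of duplicates are not given in the sources used here. Peak lists of 10 columns were deposited, 1 per library. The deposited −log10 q-value, −log10 p-value, score and fold enrichment at the summit are the authors' own; by the values, the deposited score is about 10 times the −log10 q-value.

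Summit fragments and local background were recovered from the deposited fold, taken as fragments plus 1 over background plus 1, and the deposited −log10 p-value, taken as a Poisson tail. The recomputed value lay within a relative 0.0001 for all 18973 and 8940 peaks on chromosomes 1 to 22, X and Y. The calculation was tested on simulated data. Shared means an overlap of at least 1 bp. Genes (20037 protein-coding) and start windows came from RefSeq for GRCh38.p14, whose gene table gives no strand or exons, so exonic and intronic positions are not reported. All 316 listed names matched; a few of them are counted but not reported here by name. Domains were named for their nearest or overlapped coding gene by rank in number of peaks, covered length, difference and Vector-library share, or by a listed gene. The members and lists were chosen with earlier results of these data known. Intervals are exact (95%). Python 3.11.15, pandas 2.3.3 and scipy 1.17.1 were used.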

Additional observations from a re-analysis of the deposited data

How the results depend on the processing

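The counts depend most on which list forms the domains and on how many weak peaks it keeps. The number of domains was 361, and it became 136 with joining at 5 kb, 602 at 25 kb, 112 with 4 or more peaks, 37 with the ERG list cut to as many peaks as the Vector list has, 41 in the upper 50% by score of both lists and 40 on the Vector list. Vector-library coverage was 23.8% of the ERG-library length, 44.7% with the shortened list and 82.0% on the Vector list. Domains with no Vector-library peak were 39.6%, then 21.6% with the shortened list, 46.3% in the upper 50%, 25% with 4 or more peaks, 33.9% on the merged lists and 0% on the Vector list, where the choice fixes it. Domains covered at least 2 times as long in the ERG library were 90.0%, then 64.9, 73.2, 84.4 (merged) and 2.5% (Vector list). Shared domain peaks were 26.5%, then 24.1% at 25 kb, 53.1% shortened, 38.3% in the upper 50%, 31.3% with 4 or more peaks, 82.9% on the Vector list and 18.4% when at least 50% of the ERG-library peak had to overlap. The fragment ratio of 2.0 became 1.95 with 2 or more shared peaks, 1.96 at 5 kb, 2.14 within 100 kb of a coding gene, 1.95 without the 4 domains of 9 or more peaks and 1.86 on the Vector list. Listed genes with a domain were 30 of 316, then 17 within 10 kb and 4 in the upper 50%. Under the same settings, 3.1, 1.49 and 0.279% of all coding genes had one. Of 75 alternative values 45 stayed close to the main one, those thinned to the Vector background among them, and under none was the total Vector-library coverage longer than that of the ERG library. The settings without domains of 9 or more peaks (also between genes), without peaks near listed starts (none on chromosome 8 was used), with distal peaks alone, and the fragment ratio on the Vector list were chosen after seeing the data. Other causes of these changes were not tested. No paired analysis was possible because each group holds 1 library.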

Other observations

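MicroRNA genes overlapped 11 domains, and few of them lay under a peak. Of those with an entry in the RefSeq table of GRCh38.p14, MIR4449, in the domain nearest ERVMER34-1 on chromosome 4 from 52712682 to 52712747, and MIR3180-2, in the domain nearest NOMO3 on chromosome 16 from 16309879 to 16309966, had their mature sequence inside an ERG-library domain peak. The other entries were not wholly inside a peak. MIR6859 copies lay in 3 domains, nearest LOC124905564, PRAMEF22 and OR4F15, and such near-identical copies make the placement of reads there uncertain. These genes were chosen after their values were seen.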
